A study of Mus musculus with 15 samples.

Results

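Exc_3 is a group of excitatory neurons of the mouse prefrontal cortex (PFC), 1 of 26 fine excitatory clusters, and its members were taken here as every retained cell that the deposited cell table assigns to it. There were 854 such cells among 35360 retained cells, 452 from adult (P60) and 402 from juvenile (P21) mice, and the other 25 excitatory clusters held 19523 cells. The expected markers of the cluster are Cux2 and Calb1. Cells came from male C57BL/6N mice as 12 P60 libraries, each a pool of tissue from a pair of mice aged 8 to 10 weeks, and 3 P21 libraries from mice aged 3 weeks. The P60 mice had learned intravenous self-administration of cocaine or of saline and were taken during maintenance, after 48 h of withdrawal or after 15 days of withdrawal, with 2 libraries in each of the 6 groups. The procedure included food restriction, food training and a jugular catheter, and the P21 mice had no self-administration phase. The mice stated for P21 are too few for a separate pair per library, so the P21 libraries may share animals. The labels name the nucleus accumbens as tissue in 1 field and the PFC in all others.

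The cells of PFC layers 2 and 3 are glutamatergic neurons whose axons stay mostly within the cerebrum, where they connect cortical areas and hemispheres. Cux2 is a homeodomain transcription factor that marks upper-layer neurons and takes part in the growth of their dendrites and spines, and Calb1 encodes calbindin, a cytosolic calcium buffer. Deep-layer neurons express other regulators, among them Fezf2 and Etv1 in layer 5 and Foxp2 and Tle4 in layer 6. Immediate early genes such as Fos, Junb and Npas4 are switched on within minutes by neuronal activity, and Fos and Junb also by cell stress.

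Values below are unique molecular identifiers (UMIs) summed over the Exc_3 cells of a library and given as CPM, that is scaled to the same sum in every library, without mitochondrial and ribosomal protein genes. A library held 13 (library 2, saline maintenance) to 74 (library 11, saline 15 days) Exc_3 cells at P60 and 140, 112 and 150 at P21, with 163776 to 1141655 UMIs behind the sums. The median cell of a library had 8792 to 13917 UMIs at P60, against 8881, 6994 and 5394 in P21 libraries 1, 2 and 3. The class column of the same table called 450 of 452 P60 cells and 395 of 402 P21 cells excitatory, and the remaining 9 inhibitory, glial or endothelial. Among all retained cells 747 barcodes occurred in more than 1 library, and 1 of these was Exc_3 in both. P21 library 1 had 220 of 6124 genes over 2-fold from the other P21 libraries, against 78 and 92 for those. Haemoglobin transcripts summed to 2099 CPM in library 5 (saline 48 h) and to 1909 CPM in P21 library 1, against a saline median of 98.7.

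Both marker genes were high in Exc_3, and at P60 neither was highest there. Cux2 (chromosome 5, 122308396 to 122500111, minus strand, in the mouse assembly NCBIM37 used by the files) reached 224 ± 68.3 CPM (SD, n = 12 P60 libraries) in Exc_3, second of 26 clusters after Exc_6 at 238 ± 45.6 (n = 10). Exc_3 was above Exc_6 in 5 of 10 shared libraries, so the order of these neighbours did not exceed their spread, and Exc_2 followed at 152 CPM. Calb1 (chromosome 4, 15808411 to 15835211, plus strand) reached 293 ± 79.0 CPM and ranked 4, within the spread of Exc_4 (327 ± 114), Exc_5 (321) and Exc_1 (316). Exc_6, the only cluster with more Cux2, had 17.3 CPM of Calb1. Since the clusters were built from these cells and genes, these levels are a description and were not tested.

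**Figure D1:**
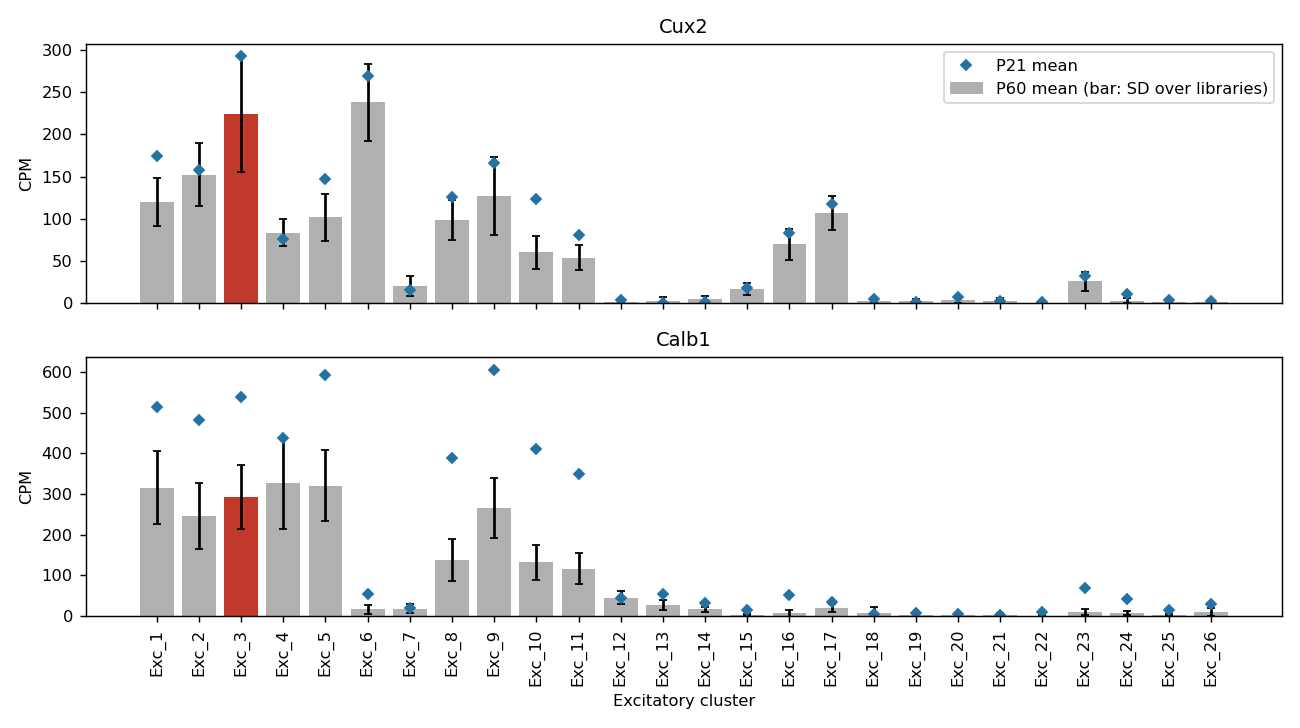
Level of Cux2 (top) and Calb1 (bottom) in each of the 26 excitatory clusters, as mean CPM over P60 libraries with at least 10 cells of the cluster (bars, with SD) and over P21 libraries (diamonds). Exc_3, in red, stands with Exc_6 at the top for Cux2 and with Exc_1, Exc_4 and Exc_5 for Calb1, and its P21 means are 293 CPM for Cux2 and 539 CPM for Calb1.

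Most single cells held both transcripts. At P60, 325 of 452 Exc_3 cells (71.9%) had a UMI of Cux2 and of Calb1, 45 had Cux2 alone, 64 Calb1 alone and 18 (3.98%) neither. The cells with both had a median of 11937 UMIs, against 8456 for those with neither. Cux2 was seen in 81.9% of P60 cells (exact 95% interval 78.0 to 85.3%, median 10741 UMIs) and Calb1 in 86.1% (82.5 to 89.1%). Endothelial cells, which should lack both, had 1.63% and 1.82% at a median of 4516 UMIs. P60 cells of the other excitatory clusters had 31.1% and 34.9% at a median of 13732 UMIs. After each cell was thinned to 2000 UMIs the P60 shares in Exc_3 were 35.6% and 37.6%. They were 8.70% and 12.6% in the other excitatory clusters, and 0.505% and 0.477% in endothelial cells. These intervals cover counting error only.

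The genes that stood highest over the other clusters had varied roles, from adhesion to growth factors. Among genes of at least 20 CPM, the highest ratio to the mean of the other 25 clusters belonged to Aldh1a3, a retinoic acid synthesis enzyme, at 22.2 ± 12.4 CPM against 2.25. It was followed by Otof, the calcium sensor otoferlin, at 33.4 ± 10.4 CPM against 5.07, and by Capn3, a calcium-dependent protease, at 47.8 ± 14.8 against 8.88. Pvrl3, the adhesion protein nectin 3, was at 78.1 ± 13.1 CPM against 16.3. The neurotrophin Ntf3 (30.0 ± 10.99 CPM), the insulin-like growth factor binding protein Igfbp2 (21.1 ± 6.64 CPM), Evc2, the lincRNA D430036J16Rik, the protocadherin Pcdh8, the peptide-amidating enzyme Pam, the calcium-binding Necab2 and Cux2 itself completed the 12 highest ratios. Exc_4, the cluster most like Exc_3, had higher means of the leading genes, with Aldh1a3 at 32.3 ± 10.8 CPM, Otof at 47.9 ± 11.3 and Capn3 at 59.8 ± 18.1. It had lower means of Pvrl3 (77.9 CPM), Pam (97.1) and Cux2 (83.5). Exc_3 ranked first of 26 for 2 of the 12, Pvrl3 and Pam, and in both the next cluster lay within the spread. Pam was at 254 ± 102 CPM in Exc_3 and at 186 ± 40.3 in Exc_6, and Exc_3 was the higher in 6 of 10 libraries.

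Pcp4, Fezf2 and Hs3st4 of the layer 5 and layer 6 lists were among the 6 lowest ratios to the other clusters. The rest of the 6 are on neither list. The calmodulin regulator Pcp4, whose transcript end shares 43.4% of its sequence with Igsf5, was at 57.9 ± 52.1 CPM in Exc_3 and at 8645 ± 944 in Exc_18. Fezf2 was at 1.79 ± 3.96 CPM against 239 ± 74.2 in Exc_21, and Hs3st4, a heparan sulphate enzyme of layer 6 neurons, at 1.03 ± 2.01 against 212 ± 30.8 in Exc_18. Syt6, Oprk1, Ctgf and Nxph4 of the layer 6 list had 0 UMIs in all P60 Exc_3 cells. Not every gene of the layer 2/3 list was high. Rorb of that list, a layer 4 nuclear receptor that some upper-layer cells share, was at 10.5 ± 10.4 CPM. It ranked 17, against 291 ± 37.3 in Exc_10. Inhba of the same list was at 7.46 ± 6.01 CPM, against 33.7 ± 15.4 in Exc_5. Etv1 was at 25.1 ± 14.9 CPM and ranked 14, against 705 ± 50.4 in Exc_21, and was seen in 78 of 452 Exc_3 cells (17.3%) and in 13.2% of the shallower endothelial cells. Examples from the layer 2/3 list that were high, and shared with neighbours, were Rasgrf2, Enpp2 and Wfs1. Rasgrf2, a Ras exchange factor, reached 180 ± 40.8 CPM (rank 2), Enpp2 253 ± 55.7 (rank 3) and Wfs1 165 ± 32.4 (rank 3, with Exc_2 at 373 ± 36.0).

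Across 9776 genes of at least 10 CPM in some excitatory cluster, the P60 profile of Exc_3 was most like Exc_4 (Pearson r = 0.990 of log2(CPM + 1), across genes, which are not independent) and Exc_5 (r = 0.988), followed by Exc_9 (0.975) and Exc_2 (0.972). At P21 the order was another, with Exc_9 at 0.982, Exc_4 at 0.975, Exc_2 at 0.973 and Exc_5 at 0.972. All these clusters share libraries.

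Several genes were higher in Exc_3 than in its nearest neighbours. Bhlhe41, a clock-related transcriptional repressor, was at 86.1 ± 26.2 CPM in Exc_3, with 51.9 in the lowest and 157 in the highest library. It was at 19.2 ± 8.79 CPM in Exc_4 and at 26.6 ± 9.26 in Exc_5, and Exc_3 was the higher in 12 of 12 P60 and 3 of 3 P21 libraries in both comparisons. Spry2, a feedback inhibitor of receptor tyrosine kinase signalling, was at 36.0 ± 18.3 CPM against 5.68 ± 2.12 in Exc_4, again higher in 12 of 12 and 3 of 3 libraries. D17H6S53E was at 27.3 ± 13.5 CPM against 5.02 ± 2.48 in Exc_4 and 7.53 ± 5.78 in Exc_5. Slc39a1, a zinc importer, was at 35.8 ± 15.6 CPM against 9.93 ± 8.12 in Exc_5. Rbm15 and Bok were also among the 5 highest ratios to Exc_4, at 24.6 ± 9.74 and 28.0 ± 18.1 CPM. Rbm15 was higher in 11 of 12 P60 libraries, and for Bok the order held in 1 of 3 P21 libraries.

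The 5 genes lowest against Exc_5 were Penk, Nptx2, Inhba, Bdnf and Cdkn1a. The neurotrophin Bdnf was at 40.7 ± 13.0 CPM, at most 67.3 in any P60 library, against 149 ± 32.5 and at least 104 in Exc_5. The pentraxin Nptx2 was at 5.30 ± 4.76 against 26.5 ± 8.95, the activin subunit Inhba at 7.46 ± 6.01 against 33.7 ± 15.4, the cell cycle inhibitor Cdkn1a at 19.96 ± 12.2 against 65.3 ± 15.8, and the opioid peptide precursor Penk at 3.49 ± 3.13 against 27.5 ± 24.5. Bdnf, Nptx2 and Cdkn1a were lower in 12 of 12 P60 libraries. At P21, Penk was at 33.9 CPM in Exc_3 and 35.1 in Exc_5 and was the higher in Exc_3 in 2 of 3 libraries, and Nptx2 was at 6.10 and 8.62 and the higher in 1 of 3. Against Exc_4, the lower genes were Dio3, Plk5, Slc1a3, Nnat and Rab3b, with Dio3, which inactivates thyroid hormone, at 4.61 ± 4.95 against 20.7 ± 11.3 CPM. The globin genes Hba-a1 and Hba-a2, which share 79.3% and 88.7% of their transcript ends, also ranked as higher than in Exc_5, at 66.5 ± 146 and 47.6 ± 105 CPM, but without library 5 they were at 26.5 ± 47.8 and 18.1 ± 25.97 CPM, against 12.1 ± 7.61 and 10.7 ± 6.37 in Exc_5.

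Exc_3 took a larger share of excitatory neurons at P21 than in adult saline mice. It made up 5.64%, 7.23% and 7.88% of the excitatory neurons in the 3 P21 libraries. In the saline P60 libraries the share was 4.05% and 4.57% at maintenance, 6.42% and 2.94% at 48 h and 2.90% and 2.44% at 15 days. The groups overlapped, since library 5 at 6.42% (exact 95% interval 4.71 to 8.53%) lay above P21 library 1 (4.77 to 6.62%). The means were 6.92% ± 1.15 (SD, n = 3) and 3.89% ± 1.48 (n = 6), a difference of -3.03 points from P21 to P60 (exact permutation test, two-sided, p = 0.0357 over 84 regroupings, smallest possible p = 0.0119). Leaving out P21 library 2 or 3, or any saline library but library 5, took p to between 0.0536 and 0.0714. P21 cells were named by correlation with the P60 clusters rather than by clustering, and had 7090 ± 1745 UMIs in the median cell against 11766 ± 1769 in saline P60 libraries (exact permutation test, two-sided, p = 0.0119, the smallest this design allows). The tests of share and depth took the P21 libraries as separate replicates, though these may share animals. The larger share at P21 was not particular to Exc_3 among the clusters most like it. Mean shares at P21 and in saline P60 were 8.16% and 3.40% for Exc_9 and 4.07% and 3.60% for Exc_2. They went the other way for Exc_4 (3.64% and 7.84%) and Exc_5 (1.58% and 4.82%). Retained Exc_3 cells also reached down to 1176 genes at P21 and to 1526 at P60. The part of naming and depth in the share, and of this unlike minimum in share and depth, was not tested.

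**Figure D2:**
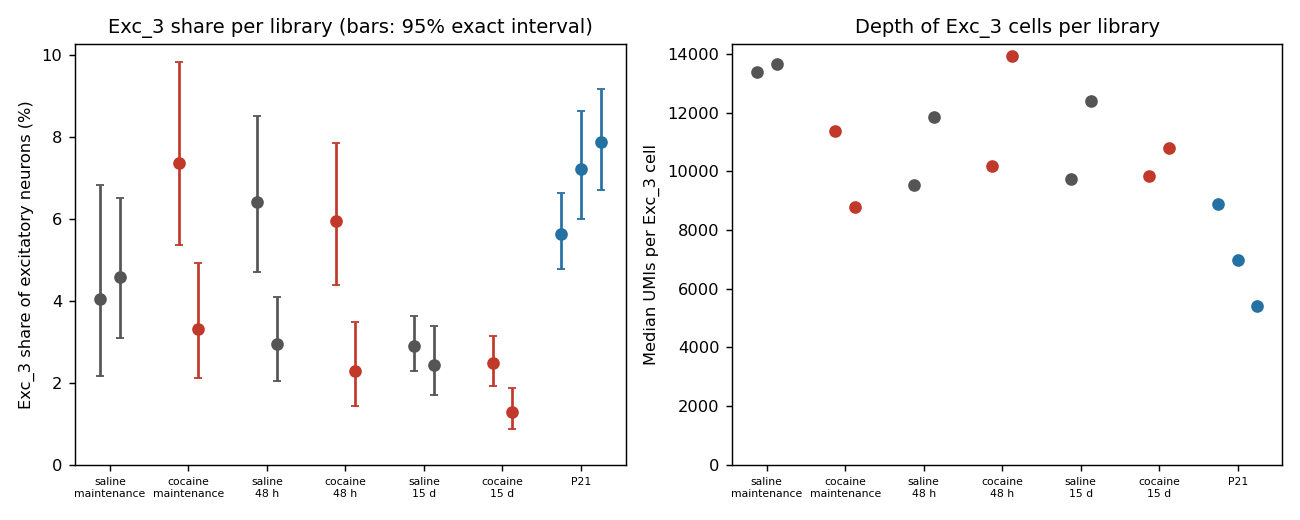
Left, share of Exc_3 among the excitatory neurons of each library in %, with the exact 95% binomial interval; right, median UMIs of its Exc_3 cells. Points are libraries, in grey for saline, red for cocaine and blue for P21: the P21 shares are 5.64 to 7.88%, the saline shares 2.44 to 6.42%, and every P21 library has fewer UMIs per cell than every saline library.

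A difference in share between cocaine and saline libraries was not detectable. In cocaine libraries it was 7.37% and 3.31% at maintenance, 5.95% and 2.30% at 48 h and 2.48% and 1.29% at 15 days. The mean within-time-point difference between cocaine and saline was -0.104 points (exact permutation test within time points, two-sided, p = 0.963, smallest possible p = 0.00926), and the differences at maintenance, 48 h and 15 days were 1.03, -0.558 and -0.783 points. Libraries of 1 group differed by more than that, such as 6.42% and 2.94% in saline at 48 h.

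Between P21 and adult saline mice, more genes fell than rose in Exc_3, and axon growth genes and immediate early genes were among those that fell. Of 6124 genes tested with edgeR, 493 (8.05%) were called, with an adjusted p under 0.05 and over 1.5-fold change, 185 higher (3.02%) and 308 lower (5.03%) at P60. The 3 P21 and 6 saline libraries did not overlap in 366 of the 493, and the share over all genes tested was not counted. In every fit that left out 1 library 232 of the 493 were called, 65 higher and 167 lower. The count of higher genes depended on each P21 library: it was 100 without library 2 and 96 without library 3, and without library 1 660 genes were called, 325 higher and 335 lower, and 404 of the 493 were among them. P21 Exc_3 cells were named by correlation with the P60 clusters, so Exc_3 may not hold the same cells at both ages. The part of this naming in the age calls was not tested. The P21 libraries may share animals. With P21 libraries 2 and 3 summed, 366 genes were called, 105 higher and 261 lower, and 350 of them were among the 493. Of the 308 lower genes 36 belong to the 53 genes described below that moved together by library, Cyc1 and Junb among them. Both comparisons use saline libraries 11 and 12, so this overlap is no independent result, and the part of library differences in these falls was not tested.

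Cd24a, a surface glycoprotein of immature neurons (chromosome 10, 43298975 to 43304068, plus strand), changed most. It was at 75.3, 86.6 and 135 CPM at P21 and at 0 in 5 of 6 saline libraries, with 2.91 CPM in library 12. That was 259 UMIs at P21 against 1 UMI in saline P60, a ratio of 223 (95% counting interval 39.7 to 8844; edgeR log2 change -7.23 ± 0.488 SE, adjusted p = 2.13e-10). Marcksl1, a regulator of actin and of neurite growth (chromosome 4, 129190825 to 129193229, plus strand), was at 328, 283 and 248 CPM at P21 and at 0 to 29.1 in saline libraries, with a log2 change of -4.03 ± 0.347 (edgeR adjusted p = 1.64e-05). No library of either age overlapped the other for these genes.

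They belong to a list of 37 axon growth and immature neuron genes, of which 30 were tested, 11 fell, none rose and 19 were not called. The median log2 change of the list was -0.40, against 0.02 over all genes tested, and 25 of the 30 lay below 0. The abundant members fell by less. Gap43, the growth cone protein, went from 1219 ± 317 CPM (SD, n = 3) to 734 ± 104 (n = 6), and Stmn2, a microtubule destabiliser, from 2046 ± 271 to 1193 ± 154. The adhesion molecule Ncam1 went from 671 ± 108 to 350 ± 101 CPM, and the imprinted gene Nnat from 254 ± 93.8 to 47.9 ± 25.02. Marcks, Dpysl2, Crmp1, Tubb2a and Bcl11a made up the rest, with log2 changes of -0.68 to -0.79. Without P21 library 1, 12 of 31 fell and the median was -0.58.

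Among 27 immediate early genes, 11 were tested, of which 6 fell, none rose and 5 were not called, with a median log2 change of -0.90, and all 11 lay below 0. Npas4, an activity-dependent transcription factor (chromosome 19, 4984355 to 4989971, minus strand), was at 59.6, 43.3 and 44.7 CPM at P21 and at 0 to 12.2 in saline P60, with library 5 the highest (log2 change -3.61 ± 0.410, edgeR adjusted p = 3.28e-06). Junb was at 307, 199 and 172 CPM against 21.9 to 66.9, and Fos at 165, 142 and 153 against 18.3 to 64.0, with library 12 the highest saline library for both. The adult cocaine libraries 9 and 10, which are not in this comparison, had Junb at 111 and 120 CPM, and Junb is one of the 53 genes described below that moved together by library. The phosphatase Dusp6 (91.2 ± 16.8 against 27.2 ± 5.48 CPM), the orphan receptor Nr4a1 (46.8 ± 6.48 against 20.7 ± 8.66) and the antiproliferative gene Btg2 (81.7 ± 4.26 against 44.9 ± 19.0) completed the 6. For each of these 6 the libraries of the ages did not overlap, and without P21 library 1 the same number fell. Cell dissociation can also raise immediate early genes, and its part in their fall was not tested.

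The promoters of the 6 immediate early genes were searched, on both strands of the RefSeq windows from 250 bases before to 50 after the start site (GRCm38.p6), for the full cAMP response element TGACGTCA, the site bound by the activity-regulated factor CREB. It was found in 1 of the 6, Btg2, and in 588 of 32851 promoters (1.79%). The heat shock element GAANNTTC was found in 0 of the 6 and in 7.86% of all promoters. The stretch of the Btg2 promoter is shown because it holds the only match, in capitals, 166 bases before the start site on the minus strand, chr1:134079304-134079331.
Btg2: ttcccaataaTGACGTCAgtgagcgatg

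**Figure D3:**
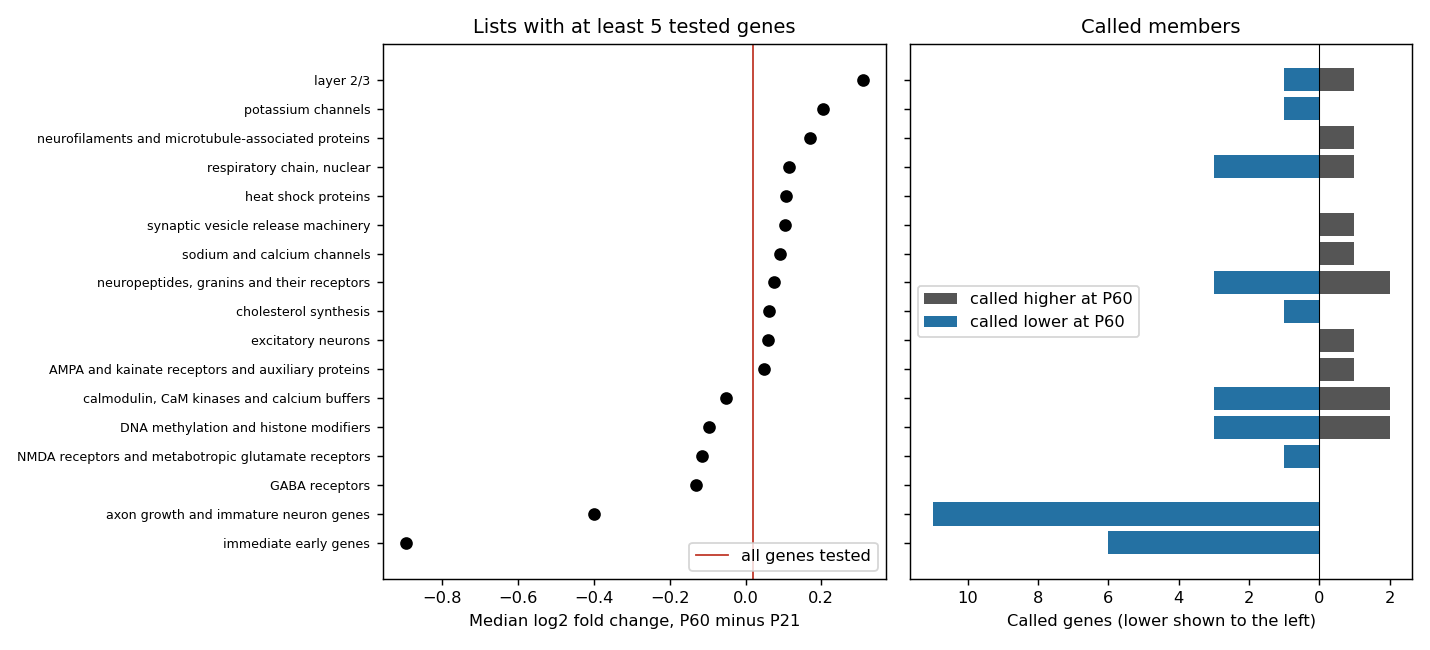
Gene lists with at least 5 tested members between P21 and P60 saline in Exc_3: left, the median log2 fold change (P60 minus P21), with the median of all genes tested as a red line at 0.02; right, the number of called members, higher at P60 to the right and lower to the left. Immediate early genes (median -0.90, 6 lower) and axon growth genes (median -0.40, 11 lower) lie farthest to the left.

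Of 18 tested genes of neuropeptides, granins and their receptors, Penk, Pdyn and Sst fell, Scg3 and Npy1r rose and 13 were not called, with a median of 0.07. Penk was at 27.2, 31.1 and 43.4 CPM at P21 and at 0 to 7.35 in saline P60 (log2 change -3.05 ± 0.453, edgeR adjusted p = 8.86e-05), and the dynorphin precursor Pdyn went from 49.6 ± 14.3 to 15.3 ± 11.8 CPM. The somatostatin gene Sst, a marker of inhibitory neurons, was at 28.0, 102 and 28.5 CPM at P21 against 0 to 14.6. The 6 inhibitory markers together summed to 36.8 to 120 CPM at P21 and 0 to 33.6 in saline P60, and Sst was the only one tested. The 8 astrocyte markers summed to 354 to 598 CPM at P21 against 164 to 501, the 8 endothelial and mural markers to 43.3 to 114 against 12.2 to 52.4, the 10 oligodendrocyte markers to 134 to 285 against 54.6 to 320, the 8 microglial markers to 19.8 to 174 against 18.3 to 52.4, and the 5 oligodendrocyte precursor markers to 1.24 to 5.41 against 0 to 5.82, with Pdgfra at 0 in every library. The part of these in the age differences was not tested. With only the cells of the excitatory class, which does not remove free RNA, 498 genes were called, 483 of them among the 493.

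The other named falls were Gm10071, 2310036O22Rik, Tmem93 and Cox5a. Gm10071 (41.4 ± 13.9 against 4.23 ± 3.04 CPM) overlaps Med12l on the same strand and shares 72.6% of its end with other genes, so its reads cannot be assigned with certainty. Cox5a, a cytochrome c oxidase subunit, was at 1237, 556 and 454 CPM at P21 and at 81.9 to 256 in saline P60, with library 12 the highest (log2 change -2.46 ± 0.484, edgeR adjusted p = 0.021). The adult cocaine libraries 9 and 10 had Cox5a at 634 and 642 CPM, above P21 libraries 2 and 3. They had 2310036O22Rik at 194 and 137 CPM, against 126 and 102 in P21 libraries 2 and 3, and Tmem93 at 194 and 168 CPM, against 172 and 138. Gm10071 was at 32.3 CPM in library 9, above P21 library 2 at 28.4, and at 10.3 in library 10. The levels of all these named falls thus overlapped between P21 and all adult libraries. The part of such library differences in their falls was not tested. Cox5a did not stand for its list: of 77 nuclear respiratory chain genes tested, Cox5a, Cyc1 and Atp5d fell, Ndufv1 rose, 73 were not called and the median was 0.11.

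Among the rises, Myh14, a non-muscle myosin heavy chain (chromosome 7, 51861173 to 51926213, minus strand), was the largest. It was at 10.5, 9.47 and 11.2 CPM at P21 and at 77.5 to 159 in saline P60, with no overlap (log2 change 3.28 ± 0.258, edgeR adjusted p = 3.64e-09). Dkkl1, a secreted dickkopf-like protein, rose from 2.61 ± 0.115 to 24.7 ± 16.6 CPM, and Tnnt2, a troponin T, from 4.14 ± 1.83 to 29.9 ± 8.16. Nrsn2, a vesicle membrane protein of neurons, rose from 8.78 ± 4.75 to 48.0 ± 16.5 CPM, and the calcium-binding S100a6 from 47.0 ± 8.73 to 189 ± 74.3. Rnf207, Clec18a and Efcab10 rose with log2 changes of 1.84 to 2.36. H2-T22, a class I histocompatibility gene, rose by 2.76 ± 0.552 but shares 79.2% of its end with a paralogue.

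**Figure D4:**
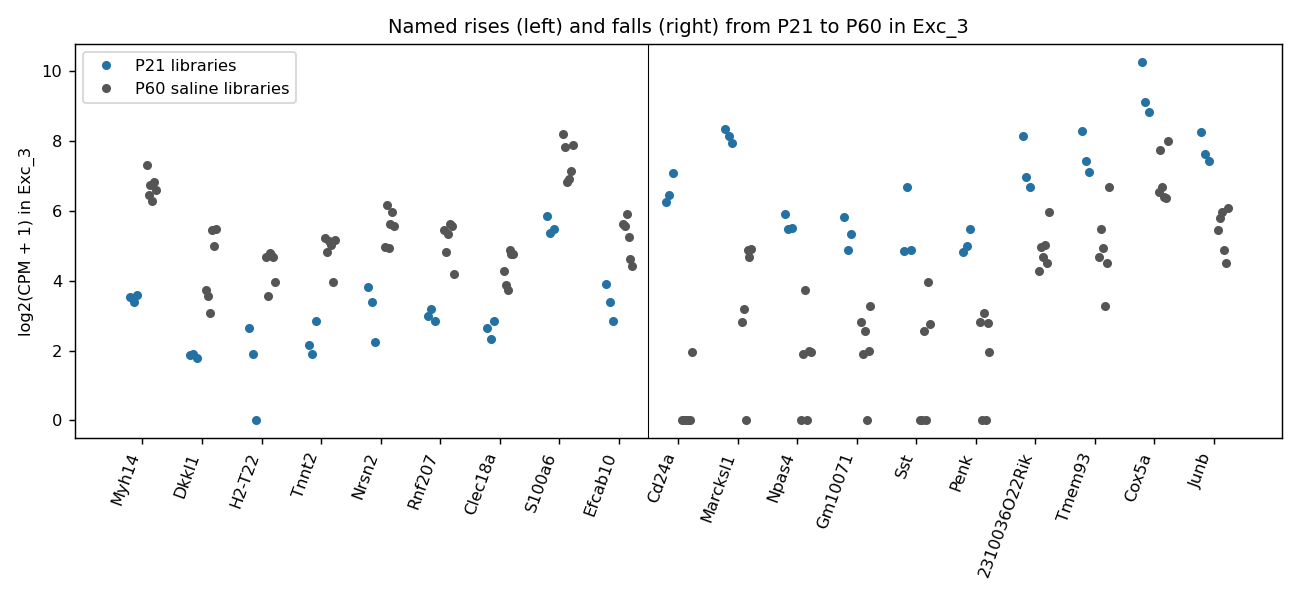
Named rises (left) and the 10 largest falls (right) from P21 to P60 saline in Exc_3, as log2(CPM + 1) per library, with P21 in blue and saline P60 in grey. Each gene was chosen for libraries that do not overlap; Cd24a is at 0 in 5 of 6 saline libraries, and library 12 is the highest saline point for 2310036O22Rik, Tmem93 and Cox5a.

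In the list of 33 vesicle release genes, 30 were tested and 1, Snap25, was called, at 2684 ± 233 CPM at P21 and 4130 ± 460 at P60 (log2 change 0.63 ± 0.127, edgeR adjusted p = 0.00214). Mtap1a, a microtubule-associated protein, went from 201 ± 17.7 to 366 ± 44.5 CPM, the calcium/calmodulin kinase kinase Camkk1 from 51.8 ± 7.02 to 104 ± 18.8 and the neuropeptide Y receptor Npy1r from 27.5 ± 6.90 to 55.7 ± 16.1. The AMPA receptor subunit Gria4, the calcium sensor Hpca and the granin Scg3 rose by 0.60 to 0.74 on the log2 scale. In the other direction, the NMDA receptor subunit Grin3a went from 52.9 ± 14.2 to 17.5 ± 10.4 CPM and the potassium channel Kcnk1 from 95.4 ± 20.3 to 46.8 ± 20.6. None of 14 tested GABA receptor genes, and 1 of 27 potassium channel genes, was called, though without P21 library 1 the latter had 5 higher and 1 lower. Of 25 tested DNA methylation and histone modifier genes 20 were not called, with a median of -0.10. The DNA methyltransferase Dnmt3a went from 105 ± 39.8 to 51.1 ± 9.47 CPM, Yeats4 and Ube2d3 fell, and Ezh1 and Prmt1 rose.

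Of 9 tested layer 2/3 genes, Calb1 fell, Otof rose and 7, Cux2 among them, were not called. Calb1 was at 689, 502 and 425 CPM at P21 and at 234 to 352 in saline P60 (log2 change -0.95 ± 0.154, edgeR adjusted p = 0.000251), without overlap. Otof rose from 18.9 ± 7.97 to 38.1 ± 10.7 CPM (adjusted p = 0.0419, edgeR), with overlapping libraries, and Cux2 was at 293 ± 26.7 CPM at P21 and 239 ± 67.9 in saline P60. Of the layer 6 genes, Rprm went from 49.7 ± 23.6 to 17.1 ± 5.96 CPM and Pcp4 from 189.8 ± 97.6 to 49.1 ± 30.4.

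The same age contrast was then set against that in all other excitatory clusters summed, within library, which tests whether the change differed. The make-up of that sum was not the same at both ages (Exc_20 was 8.37% of excitatory neurons at P21 and 1.19% in saline P60, Exc_4 3.64% and 7.84%), and its part in the differences was not tested. Of 11278 genes tested by edgeR, 155 (1.37%) differed, 79 (0.7%) with a more positive change from P21 to P60 in Exc_3 and 76 (0.674%) with a more negative one. In 88 of the 155 the Exc_3 to other ratio did not overlap between ages, and the share over all genes tested was not counted. The count of 155 rested on the comparison cells and on the depth. Against Exc_4 and Exc_5 alone 1 gene was called, which was none of the 155, so none of the genes below was called against these nearest clusters. With 13 cells per library 11 genes were called, and without P21 library 2 or 3 there were 99 or 85. With P21 libraries 2 and 3 summed there were 126, all among the 155. P21 cells of every cluster were named by correlation with the P60 clusters, and the part of that in these differences was not tested.

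Cd24a again led, with an Exc_3 change more negative by 4.68 ± 0.747 on the log2 scale (edgeR adjusted p = 3.86e-07), as the other clusters went from 79.8 to 8.31 CPM and Exc_3 from 99.0 to 0.485. Npas4 went from 71.6 to 39.2 CPM in the other clusters and from 49.2 to 3.47 in Exc_3 (difference -2.95 ± 0.385, edgeR adjusted p = 3.89e-11). Penk went from 41.0 to 29.9 CPM there and from 33.9 to 3.70 in Exc_3. For Inhba and Incenp the sum of the other clusters went from 15.1 to 25.8 and from 12.7 to 39.0 CPM, while Exc_3 went from 15.1 to 9.44 and from 14.8 to 13.7. Of 26 immediate early genes tested Npas4, Fos, Dusp6 and Inhba were called, and of 34 axon growth genes Cd24a, Marcksl1, Stmn1, Neurod1 and Neurod6 were, all with the more negative change in Exc_3. For Fos and Marcksl1 the sign turned against Exc_4 and Exc_5 alone, to 0.291 and 0.198.

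On the positive side, Dkkl1 rose from 2.61 to 24.7 CPM in Exc_3 and from 76.4 to 177 in the other clusters, a difference of 2.01 ± 0.462 (edgeR adjusted p = 0.00272). Nrsn2 rose from 8.78 to 48.0 CPM against 41.6 to 72.7. Rgl2, an exchange factor for Ral GTPases, went from 9.32 to 19.9 CPM in Exc_3 and from 14.6 to 10.8 elsewhere, and the transcript 0610040B10Rik from 4.40 to 16.6 and from 9.32 to 10.3. Of 9 tested oligodendrocyte markers 6 were called this way, among them Mbp, which went from 173 to 64.8 CPM in the other clusters and from 84.04 to 62.7 in Exc_3. At P21, 269 of 5532 cells in the other clusters were of a non-excitatory class. With only cells of the excitatory class, 132 genes were called, 65 more positive and 67 more negative, and 122 were among the 155. Such sums still hold free RNA, and its part in these differences was not tested.

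Cocaine against saline, the comparison the adult libraries were made for, gave few calls in Exc_3 outside 15 days of withdrawal. Of 6378 genes tested with edgeR in a fit over all 12 P60 libraries, 3 (0.047%) were called at maintenance, all higher in cocaine and without overlap. The share without overlap over all genes tested was not counted. Pcdh17, a protocadherin at synapses (chromosome 14, 84843370 to 84936867, plus strand), was at 191 and 205 CPM in cocaine and at 55.0 and 54.6 in saline libraries (log2 change 1.80 ± 0.299, edgeR adjusted p = 0.000249). The 8 withdrawal libraries of both treatments lay between these, at 111 to 177 CPM. Nmt1, an N-myristoyltransferase that overlaps Gm17536 on the same strand, was at 334 and 308 CPM against 201 and 115. The myelin gene Mobp had 0 UMIs in saline and 23 in cocaine libraries, at least 6.40-fold higher against a floor of 3 counts over the group. Of the oligodendrocyte list 5 genes were tested at maintenance and 4 lay above 0 (median log2 difference 1.00), as did 4 of 4 astrocyte markers (median 1.35), none of them called but Mobp, and their part in the Mobp call was not tested. In fits that left a single library in a group, these calls were lost without saline library 3, and most of them were lost without cocaine library 1.

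After 48 h of withdrawal edgeR called 0 genes (0%), with 252 at an unadjusted p below 0.05, and DESeq2 called 0, with 45. Over all 3 time points 2 genes (0.0314%) were called. Rasl10a, a Ras-like GTPase (chromosome 11, 4958131 to 4960388, plus strand), was at 180 and 308 CPM in cocaine at maintenance, 193 and 227 at 48 h and 369 and 289 at 15 days, against 116, 115, 142, 106, 121 and 175 in saline. The log2 change was 0.96 ± 0.138 (edgeR adjusted p = 3.71e-06). Genes were named only where libraries did not overlap, and here the lowest cocaine library (180 CPM) lay close to the highest saline library (175). In the other excitatory clusters Rasl10a was at 109 CPM in cocaine, with libraries from 66.1 to 150, and at a mean of 70.8 in saline. The other gene was 2310036O22Rik, whose libraries overlapped. Without saline library 12 there were 15 calls over all time points.

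After 15 days 53 genes (0.831%) were called, all higher in cocaine, and in each the 2 cocaine libraries lay above both saline libraries. The share of all genes tested that did so was not counted, and the calls were made on these same libraries. The largest change was that of 2310036O22Rik (chromosome 8, 87550732 to 87554184, plus strand), at 194 and 137 CPM against 21.9 and 61.1 (log2 change 2.25 ± 0.292, edgeR adjusted p = 1.06e-07). Ccdc85b was at 98.6 and 79.0 CPM against 17.6 and 26.2, Fbxl15 at 51.0 and 44.7 against 2.93 and 26.2, Slc16a11 at 62.9 and 30.9 against 7.31 and 20.4, and the histone variant gene H2afx at 66.3 and 37.8 against 10.2 and 20.4. Of the lists, the immediate early gene Junb (111 and 120 CPM against 21.9 and 66.9) and the respiratory chain gene Cyc1 (260 and 271 against 67.3 and 125) were among the 53, and so was Rasl10a.

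These 53 genes moved together by library in cells other than Exc_3. Summed, they were at 14065 and 13332 CPM in cocaine libraries 9 and 10, at 5608 in saline library 11 and at 8717 in saline library 12, while the other P60 libraries were between 5538 and 7475. P21 library 1 was at 17794 CPM and P21 libraries 2 and 3 at 10564 and 9574. In the other excitatory clusters all 53 were higher without overlap at 15 days (median log2 difference 1.03, against 1.21 in Exc_3), and in endothelial cells 52 were higher and 50 did not overlap (median 0.95). How many of all genes did not overlap in these cells was not counted, so these counts stand without a background share. Genes called between ages had transcripts with a median GC content of 52.4% (higher at P60) and 51.1% (lower), against 49.8% for all genes tested there. Their median lengths were 2373 and 2148.5 bases, against 2934. Transcripts of the 53 genes had a median GC content of 54.9% and a median length of 1658 bases, against 49.8% and 2974 bases for all genes tested with cocaine. Without saline library 11 the count was 2, neither of them among the 53, without library 12 it was 108, and without cocaine library 9 it was 23. A library effect and an effect of cocaine cannot be told apart here.

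**Figure D5:**
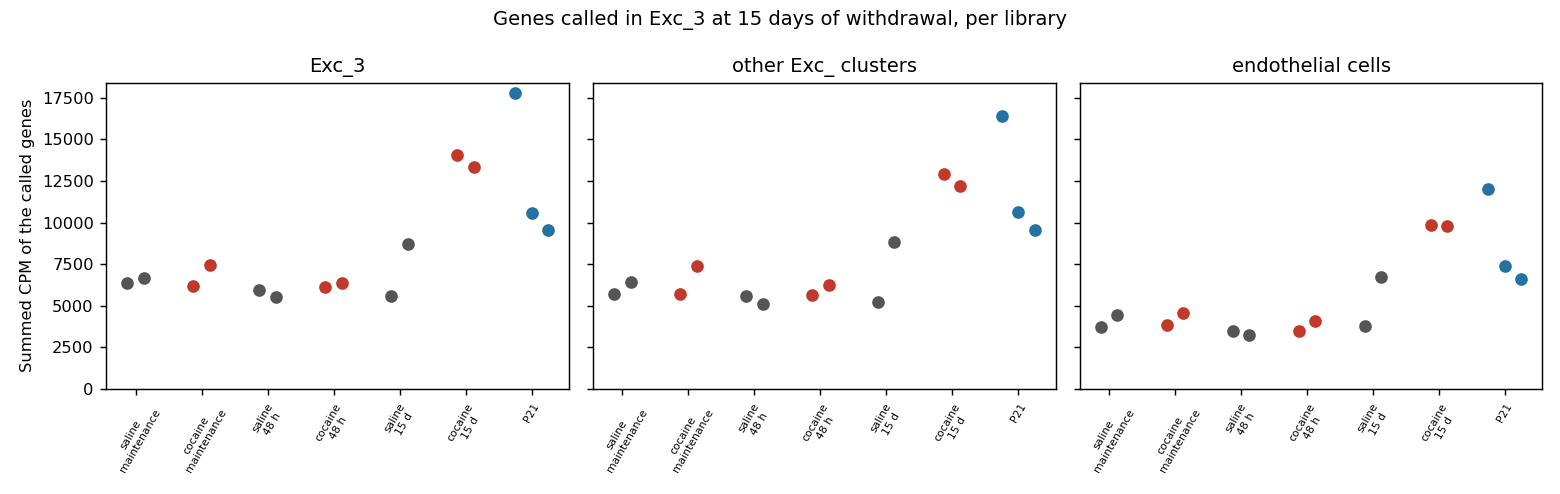
Summed CPM of the 53 genes called between cocaine and saline after 15 days of withdrawal in Exc_3, per library, in Exc_3 (left), the other excitatory clusters (middle) and endothelial cells (right); grey, saline; red, cocaine; blue, P21. In all panels the cocaine libraries at 15 days and P21 library 1 are the highest, and saline library 12 lies above saline library 11.

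A difference in the response to cocaine between Exc_3 and the other excitatory clusters over the 3 time points was called for no gene with all libraries. Of 11835 genes tested edgeR called 0 (0%), with 480 at an unadjusted p below 0.05, and DESeq2 called 0, with 227. Without cocaine library 9 there were 3 calls, without cocaine library 10 there was 1, and against Exc_4 and Exc_5 alone there was 1.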

How the data were processed

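Single-cell RNA-seq (10x Chromium) was made from dissociated mouse PFC. The deposited counts are whole UMIs per gene and cell, which the authors obtained with Cell Ranger on NCBIM37 (mm9) and filtered and clustered with Seurat 2.1.0 per the labels: minimum gene numbers set for neurons and for other cells, a maximum mitochondrial fraction, and doublets removed. The deposited cell table gives that fraction and the cluster of each retained cell. Retained Exc_3 cells had at least 1526 genes at P60 and at least 1176 at P21. The minimum for neurons was thus not the same at both ages. P21 cells were assigned to P60 clusters by correlation after joint alignment of both ages. A joined table held the same counts for the genes it lists.

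Counts were summed over the Exc_3 cells of each library (at least 10 cells) without 13 mitochondrial and 143 ribosomal protein genes, leaving 25989 genes. Libraries, not cells, were the replicates; replicate numbers only name samples, and nothing says which libraries shared a preparation day. Tests used edgeR 4.0.16 (R 4.3.3; quasi-likelihood, filterByExpr, TMM, robust), with Benjamini-Hochberg adjustment and calls at an adjusted p under 0.05 with over 1.5-fold change. The standard error (SE) is the log2 change divided by the square root of F. Differences between clusters kept the library as a block. Shares and depth were compared by exact permutation. DESeq2 1.42.0 and other settings were alternatives. Scripts were tested on simulated data. CPM intervals and floors cover counting error only.

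The members and gene lists were chosen with earlier results of these data known. Named genes were Cux2, Calb1, list members, the 12 highest and 6 lowest ratios to the other clusters, 5 each way against the 2 most like clusters and, for each test, called genes of at least 10 CPM whose libraries did not overlap, the 10 largest each way for age and 5 otherwise. Some genes that these rules name are not reported here. Genes called after 15 days were also summed as a set.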

Additional observations from a re-analysis of the deposited data

Results flagged for a closer look

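Among 31 values checked for a library far from the other saline P60 libraries 4 stood out; chance gives about 1 in 20. They were 2310036O22Rik at 61.1 CPM and Cd24a at 2.91 CPM in library 12, which for Cd24a is 1 UMI against 0 in the others and so would stand out at any count, Npas4 at 12.2 CPM in library 5, and the summed haemoglobin genes at 2099 CPM in library 5.

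The change from P21 to P60 in Exc_3 differed from that in the other excitatory clusters, by the edgeR interaction, for these genes named by the rule. It was more positive in Exc_3 for Dkkl1 (2.01 on the log2 scale), 0610040B10Rik (1.52), Nrsn2 (1.51) and Rgl2 (1.44). It was more negative for Cd24a (-4.68), Npas4 (-2.95), Penk (-2.52), Incenp (-1.70) and Inhba (-1.38). None of them was called when Exc_4 and Exc_5 alone were the comparison.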

How the results depend on the processing

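Leaving out 1 library at a time gave 361 to 660 calls between ages, 0 to 6 at maintenance, 0 to 2 at 48 h, 2 to 108 at 15 days, 1 to 15 over all times, 85 to 179 for the age difference against the other clusters and 0 to 3 for the cocaine difference. It moved the age difference in share between -3.67 and -2.55 points and the cocaine difference between -0.780 and 0.572, which was positive without cocaine library 4 (0.572), saline library 5 (0.476), cocaine library 8 (0.505) or cocaine library 10 (0.0943).
For age, 65 genes passed a Bonferroni adjustment, 140 were called with 13 cells a library, 187 with sums thinned to the lowest total, and 119, 230 and 159 with only the saline libraries of maintenance, 48 h or 15 days; DESeq2 called 382. For the age difference against the other clusters the same settings gave 38, 11, 20, 57, 64 and 242, DESeq2 gave 50, no fold cutoff 427, Exc_4 and Exc_5 as comparison 1, and P21 library 1 and library 12 both left out 69, a setting chosen after seeing the data, like that of excitatory-class cells only. At maintenance DESeq2, equal cells and thinning each gave 1; at 15 days they gave 4, 3 and 19; over all times 1, 0 and 1. The cocaine difference against Exc_4 and Exc_5 gave 1.
Signs turned for Scg3 between ages with equal cells (-0.0499), for Inhba in the age difference with equal cells (0.110), for Mobp there with maintenance saline only (-7.94), and against Exc_4 and Exc_5 for Cnp (-0.244), Fos (0.291), Marcksl1 (0.198), Nefm (-0.465), Ppp1r1b (-0.202) and Scg3 (-0.129). The cause was not tested, except that equal cells and thinning test fewer UMIs. No paired analysis was possible because replicate numbers were given in accession order.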
